A study of Arabidopsis thaliana with 12 samples.

Results

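The UV-C response of *jac1* rosettes was measured by RNA sequencing 30 min after exposure, in 3 UV-C treated against 3 non-treated *jac1* samples. Its members were the nuclear genes of the deposited count table, those on chromosomes 1 to 5. Of 37517 nuclear genes among 37813 in the table, 27439 encode proteins, and the 20021 of these with 5 or more reads in 3 or more of the 12 libraries were tested. The 12 samples of the series formed 4 groups of 3 biological replicates, each a pool of at least 4 whole rosettes: UV-C treated *jac1*, non-treated *jac1*, UV-C treated wild type and non-treated wild type. All plants were 4 weeks old, carried the *gl1* mutation in the Columbia-0 ecotype and grew under an 8 h photoperiod. The dose was 100 mJ cm-2. The mutant was a single allele, *jac1-1*. A mock exposure and the hour of harvest are not given in the sources used here, so the radiation, the handling that goes with it and the time of day cannot be told apart.

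JAC1 is an auxilin-like J-domain protein needed for chloroplasts to gather at the cell surface in weak light. UV-C, radiation of shorter wavelength than the UV-B that reaches the ground, is absorbed by nucleic acids and proteins, joins neighbouring pyrimidines in DNA, and provokes reactive oxygen species and cell death in leaves. Leaves are known to answer many sudden stresses first with calcium and MAP kinase signals, followed by transcripts of zinc finger, WRKY and ERF transcription factors and by jasmonate synthesis. Genes of photosynthesis, of the circadian clock and of cell wall growth are known to follow light and time of day.

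The libraries of the treated and non-treated plants differed in more than single genes. UV-C treated *jac1* had 21939540 to 27194762 counted reads per sample and non-treated *jac1* had 33999174 to 39098227. Protein-coding nuclear genes took 90.7% to 91.9% of the reads in UV-C treated and 99.3% to 99.4% in non-treated *jac1*. Chloroplast-encoded genes took 1.64% to 2.19% against 0.0178% to 0.0219%, and the 18S ribosomal RNA gene took 1.83% to 1.97% against 0.00577% to 0.00938%. The 10 most abundant nuclear genes took 13.9% to 15.1% against 9.14% to 9.36%. The wild-type groups differed in the same way, so the treatment and the make-up of the libraries cannot be told apart. Levels are given as CPM, the reads of a gene relative to the nuclear protein-coding reads of its library, with library sizes scaled by TMM factors. These factors were 0.833 to 0.865 in UV-C treated and 1.02 to 1.05 in non-treated *jac1*. Replicates of one *jac1* group correlated with r of 0.990 to 0.994 over 14103 genes.

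*JAC1* (AT1G75100, chr1:28190740-28194068, reverse strand, TAIR10.1 coordinates, equal to those of the file) had 170.8, 183.6 and 170.1 CPM in UV-C treated and 136.7, 162.8 and 158.8 CPM in non-treated *jac1*. The log2 FC, which was 0.19 (SE 0.080, adjusted p = 0.0496), fell short of the size asked of a called gene. The transcript was present in every *jac1* sample, so its presence does not check the labels, and its level is not set beside the wild type here. *GL1* (listed as *MYB0*), the trichome regulator that all plants lack as a functional gene, had a mean of 0.189 CPM in UV-C treated and 0.146 CPM in non-treated *jac1*.

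UV-C treatment was followed by broad change, and more genes rose than fell. Genes with an adjusted p below 0.01 by the quasi-likelihood test of edgeR that also moved by more than 1 on the log2 scale were taken as differentially expressed (DEGs). They numbered 2674, 13.4% of the genes tested: 1723 were higher (8.61%) and 951 lower (4.75%) in UV-C treated than in non-treated *jac1*. The increases were also steeper. A log2 FC over 4 was reached by 182 increases and by 11 decreases, and the medians were 1.76 among higher and -1.31 among lower DEGs. The 3 treated samples lay wholly above or below the 3 non-treated ones for 1711 of the higher and 951 of the lower DEGs. Over all genes tested such a separation was seen upwards for 34.2% and downwards for 30.0%. The median log2 FC of all genes was 0.04. With libraries scaled by size alone it was -0.24, and the share of DEGs that were higher was 39.2% in place of 64.4%. The direction of genes with a small change therefore depended on the scaling, whereas the calls of the 12 largest increases and 12 largest decreases did not. In 92 of the higher DEGs every non-treated *jac1* sample had at most 3 reads, and in 24 of the lower DEGs every treated sample did. No fold change is given for these. Of 99 genes that entered the test only through their reads in UV-C treated samples of either genotype, 74 were higher DEGs in *jac1*, which their selection favours.

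The 12 largest increases belonged to genes that were nearly silent in non-treated *jac1*. The criterion was a DEG with a mean of at least 5 CPM over the 6 samples and no overlap between groups. *DLAH* (AT1G30370), annotated as a DAD1-like acylhydrolase, an enzyme family that frees fatty acids from lipids, had 15.8, 17.1 and 20.9 CPM in UV-C treated against 0.0978, 0.0551 and 0.115 CPM in non-treated *jac1*. The log2 FC of 7.59 (SE 0.30) was the largest of the set. *CML37* (AT5G42380), a calmodulin-like calcium sensor, had 56.3, 67.9 and 62.5 CPM against 0.196, 0.496 and 0.4595 CPM. Both genes were therefore lifted by about the same fold in each treated sample.

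*ERF13* (AT2G44840), an ethylene response factor, had 110.8, 158.03 and 123.1 CPM in UV-C treated against 0.685, 1.05 and 0.976 CPM in non-treated *jac1* (log2 FC 7.18, SE 0.22). *GRX480* (AT1G28480), a glutaredoxin that binds TGA transcription factors, had 31.8, 64.2 and 58.9 CPM against 0.342, 0.193 and 0.574 CPM (log2 FC 7.12, SE 0.37). *XTH18* (AT4G30280), a xyloglucan-modifying enzyme of the cell wall, had 77.4, 70.2 and 74.3 CPM against 0.489, 0.771 and 0.804 CPM (log2 FC 6.76, SE 0.28). Of these 3, *GRX480* varied most within both groups. *AT5G54490*, which encodes the calcium-binding PINOID-binding protein PBP1, had 91.6, 95.8 and 96.8 CPM against 0.954, 1.38 and 1.06 CPM (log2 FC 6.39, SE 0.18).

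*RAP2.6* (AT1G43160), another ERF, was the least even, with 6.99, 22.5 and 4.57 CPM in UV-C treated and 0.0734, 0.0275 and 0.144 CPM in non-treated *jac1* (log2 FC 7.05, SE 0.75). *ST2A* (AT5G07010), a sulfotransferase that acts on hydroxylated jasmonate, had 73.5, 57.01 and 32.4 CPM against 0.416, 0.743 and 0.4595 CPM. *AT3G01830*, encoding the calmodulin-like protein CML40, had 32.3, 40.9 and 35.2 CPM against 0.0978, 0.2202 and 0.4595 CPM. Of its 3240 bases, 2067 overlap *AT3G01840* on the opposite strand. Strand was not used in counting, and reads overlapping several genes were left out, so its value is uncertain. *DIP2* (AT5G03210), the ERF-type factor gene *AT5G21960* and the uncharacterized *AT4G27654* completed the set, with log2 FC of 7.32, 6.87 and 6.48. The highest adjusted p of the 12 was 2.57e-06. Of the 12 genes, 9 were annotated as a single exon block.

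**Figure D1:**
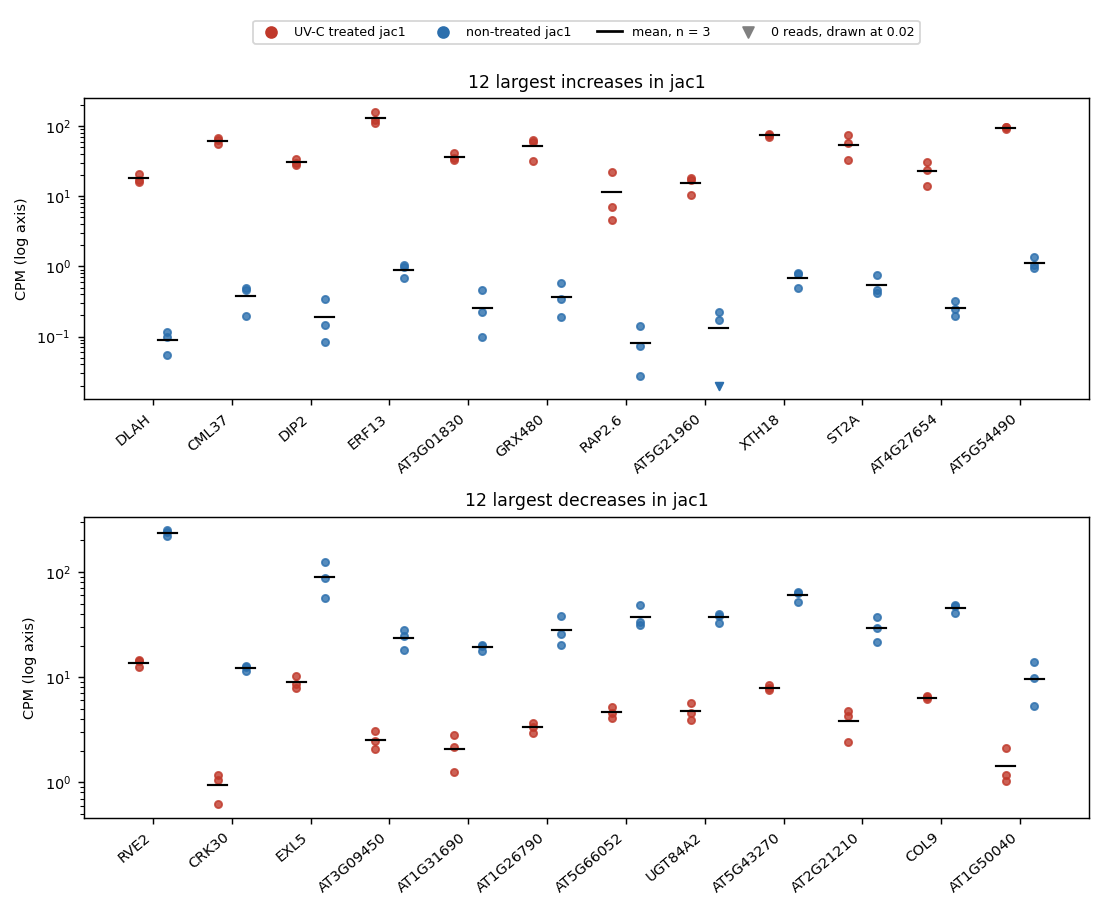
CPM of the 12 largest increases (top) and 12 largest decreases (bottom) in each sample, on a log axis, with UV-C treated *jac1* left of non-treated *jac1*, one point per sample and a line at the mean of 3. A triangle drawn at 0.02 marks a sample with 0 reads, and the groups of every gene are apart. *RVE2* had a mean of 13.8 CPM in UV-C treated and 237 CPM in non-treated *jac1*.

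The 12 largest decreases were smaller in fold and were led by a clock gene. *RVE2* (AT5G37260, chr5:14751344-14753088), a MYB factor related to the morning clock proteins CCA1 and LHY, had 14.3, 14.6 and 12.5 CPM in UV-C treated against 241.6, 248.7 and 219.4 CPM in non-treated *jac1* (log2 FC -4.10, SE 0.10). *CRK30* (AT4G11460), a cysteine-rich receptor-like kinase, had 1.16, 1.04 and 0.623 CPM against 11.4, 12.9 and 12.6 CPM (log2 FC -3.70, SE 0.21). *EXL5* (AT2G17230), of the EXORDIUM family linked to growth, had 8.69, 7.84 and 10.3 CPM against 125.6, 87.9 and 56.1 CPM (log2 FC -3.33, SE 0.35). The last varied more than 2-fold among the non-treated samples, yet every treated sample lay far below them.

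*UGT84A2* (AT3G21560), a glucosyltransferase of sinapate, from which the UV-absorbing sinapoyl esters of leaves are made, had 4.61, 3.95 and 5.71 CPM in UV-C treated against 33.1, 40.3 and 38.1 CPM in non-treated *jac1* (log2 FC -2.96, SE 0.14). *AT5G43270*, encoding the SQUAMOSA promoter-binding-like factor SPL2, had 8.39, 7.61 and 7.84 CPM against 65.2, 63.4 and 51.8 CPM (log2 FC -2.92, SE 0.12). *COL9* (AT3G07650), a B-box factor that delays flowering, had 6.16, 6.62 and 6.44 CPM against 47.5, 48.2 and 40.8 CPM (log2 FC -2.83, SE 0.12). In these the treated samples differed little from one another. The others were *AT3G09450*, of a fusaric acid resistance family, the copper amine oxidase gene *AT1G31690*, the Dof factor gene *AT1G26790*, the auxin-responsive SAUR-like *AT2G21210*, and the uncharacterized *AT5G66052* and *AT1G50040*, with log2 FC from -3.22 to -2.73. The highest adjusted p of the 12 was 0.000112.

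In absolute terms the largest gains were those of light-harvesting genes. *CAB1* (AT1G29930) had 58698, 52028 and 54682 CPM in UV-C treated against 25607, 26803 and 25833 CPM in non-treated *jac1*. *CAB2* (AT1G29920) had 20191, 17636 and 19659 CPM against 6121, 6628 and 6805 CPM. *LHCB3* (AT5G54270) had 14486, 13152 and 13633 CPM against 2693, 2953 and 3266 CPM. The largest losses were those of *RBCS1B* (AT5G38430), a small subunit gene of Rubisco, with 928.4, 745.97 and 887.02 CPM against 2018, 2016.5 and 2140 CPM, of *CP29* (AT3G53460), a chloroplast RNA-binding protein gene, and of *AT2G10940*, of a lipid transfer protein family. The calls of *CAB1* (log2 FC 0.80 with libraries scaled by size alone) and of *AT2G10940* (-0.98 without either the second treated or the second non-treated sample) sat near the threshold. *CAB1* and *CAB2* have near-identical copies, and reads that aligned to several places were not counted, so their single values are uncertain.

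The 250 bases before the annotated start are shown for the only cell wall enzyme gene among the 12 largest increases and for the gene with the largest decrease. Sequences are from the RefSeq TAIR10.1 genome, 5′ to 3′ on the strand of the gene. Capitals mark short motifs known from stress or clock promoters, searched on both strands: CGCGTT (rapid stress response element), TTGACC and TTGACT (W-boxes, bound by WRKY factors), CACGTG (G-box), GCCGCC (GCC-box, bound by ERFs), AATATCT (core of the evening element), AACCCTA (telo-box) and GATAAG (I-box). A match is a description of letters, not of a bound site.
*XTH18*, chr4:14827212-14827461, reverse strand: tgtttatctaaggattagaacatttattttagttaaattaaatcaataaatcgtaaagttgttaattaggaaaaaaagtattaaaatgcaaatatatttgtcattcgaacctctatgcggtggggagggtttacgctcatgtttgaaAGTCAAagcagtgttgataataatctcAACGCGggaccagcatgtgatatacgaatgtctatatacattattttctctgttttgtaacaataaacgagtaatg
*RVE2*, chr5:14753089-14753338, reverse strand: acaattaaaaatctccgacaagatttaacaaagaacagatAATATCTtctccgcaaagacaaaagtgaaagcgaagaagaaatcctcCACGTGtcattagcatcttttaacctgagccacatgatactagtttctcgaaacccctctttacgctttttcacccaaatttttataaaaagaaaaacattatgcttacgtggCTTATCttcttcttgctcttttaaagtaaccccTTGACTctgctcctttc
The capitals in *XTH18* are TTGACT and CGCGTT, both read on the other strand and starting 103 and 76 bases before the gene. Those in *RVE2* are, in order, the evening element core, a G-box, an I-box read on the other strand and a W-box, starting 210, 163, 50 and 17 bases before the gene.

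CGCGTT was found in the 250-base promoters of 11.5% of the 182 genes with a log2 FC over 4, 5.98% of all higher DEGs, 1.37% of lower DEGs and 2.85% of all 20020 tested genes with such a window. The share thus ran in the order of the response. TTGACC was found in 18.7%, 15.2%, 10.8% and 12.2% of the same 4 sets, and TTGACT in 29.1%, 22.9%, 17.4% and 18.8%. CACGTG was found in 12.1%, 11.8%, 5.47% and 7.41%, and GCCGCC in 3.85%, 2.26%, 1.26% and 1.92%. AATATCT was found in 8.24% of those over 4, 11.9% of higher DEGs, 12% of lower DEGs and 10.1% of all. AACCCTA ran the other way, with 1.65%, 2.90%, 5.99% and 5.27%. GATAAG was in 10.4% of those over 4, 16.2% of higher DEGs, 11% of lower DEGs and 12.4% of all. The shares are descriptions without a test, and the sets overlap.

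Among the 84 DEGs with a log2 FC over 4 and at least 5 CPM, 9 held CGCGTT. The windows around it in 5 of these, 40 bases long with the motif or its reverse in capitals, show how the letters beside it vary. They belong to *XTH18*, the cyclic nucleotide-gated channel *CNGC19*, a protein annotated as a mediator subunit (*AT1G15010*), a flotillin-like membrane protein (*AT5G64870*) and *AT2G32210*.
*XTH18*, chr4:14827265-14827304, reverse strand: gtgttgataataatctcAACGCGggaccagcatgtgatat
*CNGC19*, chr3:6044825-6044864, forward strand: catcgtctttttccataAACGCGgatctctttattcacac
*AT1G15010*, chr1:5171104-5171143, forward strand: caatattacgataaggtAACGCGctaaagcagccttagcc
*AT5G64870*, chr5:25931502-25931541, reverse strand: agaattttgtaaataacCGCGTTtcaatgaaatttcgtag
*AT2G32210*, chr2:13677868-13677907, forward strand: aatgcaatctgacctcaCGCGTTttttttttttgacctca
*CNGC19* averaged 10.08 ± 1.61 CPM in UV-C treated and 0.168 ± 0.0458 CPM in non-treated *jac1* (SD, n = 3 each). *AT1G15010* averaged 120 ± 20.2 and 2.95 ± 0.706 CPM in the same order of groups. *AT5G64870* averaged 36.3 ± 3.17 CPM in UV-C treated and 1.23 ± 0.131 CPM in non-treated *jac1*.

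To see which functions moved, 36 lists of genes were described, each by its DEGs and its median log2 FC, to be read against 8.61% higher and 4.75% lower DEGs and a median of 0.04 among all genes tested. Of 707 list members, 8 marker lists of cell types included, 650 passed the filter on low counts. The plot of lists ordered by median shows them side by side.

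**Figure D2:**
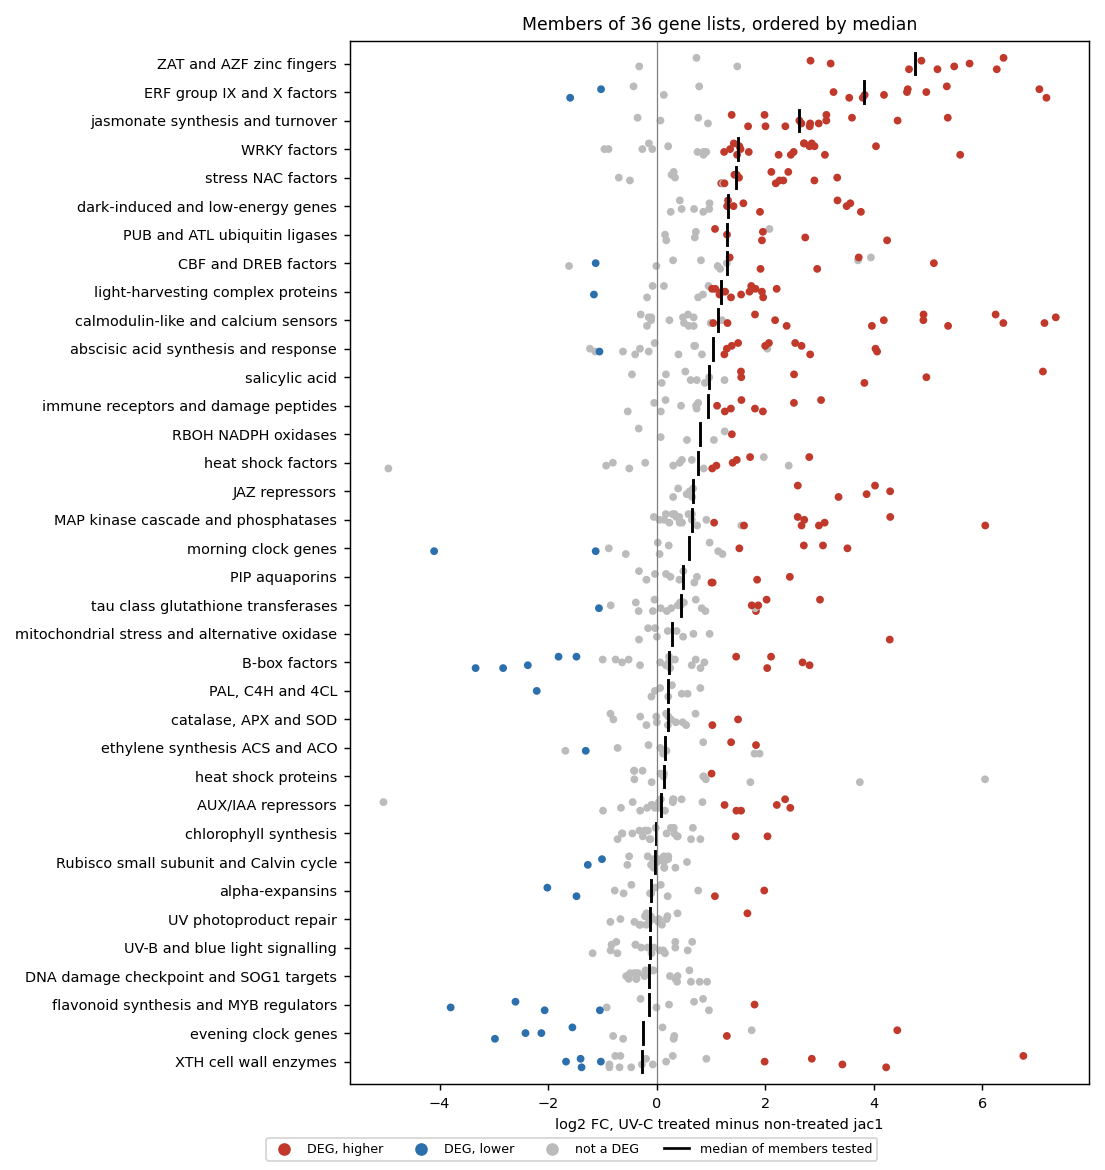
Log2 FC (UV-C treated minus non-treated *jac1*) of every tested member of 36 gene lists, one point per gene, with the median as a black line. Lists of stress transcription factors and jasmonate synthesis lie at the top, with medians of 4.77, 3.82 and 2.63, and the XTH enzymes and evening clock genes at the bottom, with -0.27 and -0.26.

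Among transcription factor genes of the rapid stress response far more rose than fell, although many did not pass the test. Of 13 genes for ZAT and AZF zinc fingers, repressors of stress genes, 12 were tested, 9 were higher DEGs and none was lower, with a median log2 FC of 4.77. It was 3.93 with the member at the floor of the counts set to its bound. *STZ* (*ZAT10*) had 524.3, 546.8 and 506.4 CPM in UV-C treated against 11.6, 26.7 and 15.4 CPM in non-treated *jac1* (log2 FC 4.88, SE 0.36). *RHL41* (*ZAT12*) had 151.5, 153.1 and 149.99 CPM against 5.45, 7.87 and 4.77 CPM. The treated samples of both were far more alike than the non-treated ones. *ZAT11* had the largest change of the list (6.39) and *ZF2* (*AZF2*) the smallest among its DEGs (2.83).

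Of 28 tested WRKY factors, 18 were higher and none lower (16 and 2 with libraries scaled by size alone), with a median of 1.503. *WRKY46* had 91.1, 98.9 and 116.8 CPM in UV-C treated against 1.198, 2.45 and 2.79 CPM in non-treated *jac1* (log2 FC 5.59, SE 0.23). *WRKY40*, a repressor of defence, had 163.8, 195.3 and 181.3 CPM against 2.79, 16.4 and 13.9 CPM, so one non-treated sample was well below the other 2. Of 16 tested ERF factors of groups IX and X, 11 were higher and 2 lower, with a median of 3.82. *ERF6*, linked to growth arrest under stress, had 163.3, 147.1 and 152.9 CPM against 2.67, 4.71 and 4.08 CPM (log2 FC 5.35, SE 0.29). *ERF104*, a substrate of MPK6, had 145.7, 153.97 and 149.3 CPM against 16.4, 21.4 and 8.99 CPM. *ORA59*, which joins ethylene and jasmonate signals, was one of the lower ones, with 0.286 and 0.858 CPM on average in UV-C treated and non-treated *jac1*. The call was lost when any one sample but the second treated one was left out (log2 FC -1.68 to -1.198), and with the replicate block (-1.60, adjusted p = 0.0125).

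Of 15 CBF and DREB factors, 5 were higher and 1 was lower. *DREB1A* (*CBF3*), an activator of cold genes, had 4.12, 4.99 and 6.18 CPM in UV-C treated against 0.0245, 0.248 and 0.172 CPM in non-treated *jac1* (log2 FC 5.11, SE 0.42). *CBF1* had 9.56, 9.46 and 12.8 CPM against 0.196, 2.09 and 1.895 CPM. These neighbouring paralogs are alike in sequence. *RAP2.4* was the lower member and the most abundant, with 51.2, 59.1 and 58.4 CPM against 110.6, 122.2 and 134.9 CPM (log2 FC -1.12, SE 0.097). Of 18 stress NAC factors 12 were higher and none lower. *NAC019* had 6.55, 12.1 and 10.8 CPM against 1.05, 0.551 and 1.32 CPM (log2 FC 3.33, SE 0.29), *ATAF2* had 154.4, 155.9 and 146.5 CPM against 18.9, 21.1 and 20.9 CPM (2.91, SE 0.091), and *RD26* had 38.9, 55.5 and 56.6 CPM against 14.8, 9.17 and 10.7 CPM (2.11, SE 0.22).

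Genes of calcium and kinase signalling rose or did not pass the test, and none fell. Of 28 tested calmodulin-like and other calcium sensors, 14 were higher, with a median of 1.12. *AT4G27280*, the most abundant, had 578.3, 543.4 and 545.99 CPM in UV-C treated against 20.8, 24.2 and 10.11 CPM in non-treated *jac1* (log2 FC 4.91, SE 0.33). *TCH3*, known to respond to touch, had 398.1, 382.6 and 456.9 CPM against 64.1, 99.7 and 108.99 CPM, and shares 827 bases with a protein-coding gene on the opposite strand. Of 26 genes of MAP kinase cascades, related kinases and phosphatases, 9 were higher, with a median of 0.65. *MPK3*, a terminal kinase of stress and immune cascades, had 397.7, 405.2 and 424.7 CPM against 52.7, 64.6 and 75.8 CPM (log2 FC 2.67, SE 0.12). *MKK9*, which acts above MPK3 and MPK6, had 111.9, 130.6 and 120.7 CPM against 16.4, 16.8 and 12.4 CPM (2.99, SE 0.11). *AGC2-1* (*OXI1*), a kinase induced by hydrogen peroxide, had 7.86, 11.03 and 10.5 CPM against 0.196, 0.0551 and 0.172 CPM (6.06, SE 0.28). *MPK11* had a log2 FC of 4.30.

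Among ubiquitin ligases and immune genes about as many rose as did not pass the test, and none fell. Of 11 PUB and ATL ubiquitin ligases 6 were higher. *CNI1* (*ATL31*), a ligase of carbon and nitrogen responses, had 86.6, 82.7 and 98.4 CPM in UV-C treated against 3.33, 5.01 and 5.86 CPM in non-treated *jac1* (log2 FC 4.25, SE 0.19). *PUB23*, a negative regulator of immune signalling, had 16.6, 19.7 and 19.3 CPM against 1.79, 3.69 and 2.901 CPM, and 988 of its bases overlap a gene on the opposite strand. Of 16 tested immune receptor and damage peptide genes 8 were higher. *FRK1*, a marker of immune signalling, had only 5.09, 2.903 and 3.01 CPM against 1.05, 0.496 and 1.61 CPM (log2 FC 1.81, SE 0.39), and *YLS9* (*NHL10*) had a log2 FC of 3.03 (SE 0.43) at 2.95 and 0.358 CPM on average.

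Among the hormone lists that of jasmonate synthesis and turnover had the highest median log2 FC. The lists differ in kind, and the difference between them was not tested. Of 19 tested genes of jasmonate synthesis and turnover, 15 were higher and none lower, with a median of 2.63. *AOC3*, an allene oxide cyclase, had 30.5, 47.95 and 42.4 CPM in UV-C treated against 1.296, 2.09 and 2.21 CPM in non-treated *jac1* (log2 FC 4.44, SE 0.22). *LOX3*, a lipoxygenase that starts the pathway, had 49.3, 67.2 and 64.5 CPM against 6.14, 7.35 and 9.42 CPM (2.99, SE 0.20). *OPR3*, the reductase of the later steps in peroxisomes, had 55.8, 106.1 and 84.5 CPM against 21.3, 19.8 and 20.9 CPM (1.99, SE 0.19), and *AOS*, the allene oxide synthase, had 161.9, 287.7 and 214.2 CPM against 81.2, 84.9 and 88.4 CPM (1.38, SE 0.16). The second treated sample was the highest in all 4. *LOX2*, the most abundant lipoxygenase of the list, had 171.6, 1201 and 430.9 CPM against 162.1, 146.3 and 140.3 CPM, so that its log2 FC of 2.01 (SE 0.48) was 1.01 (adjusted p = 0.0144) without the second treated sample, no longer a DEG. Of 12 JAZ repressors, which hold jasmonate responses back and are themselves induced by it, 5 were higher, with a median of 0.66. *JAZ1* had 88.99, 117.7 and 108.4 CPM against 7.83, 11.4 and 11.7 CPM (3.35, SE 0.18), and *JAZ10* and *JAZ8* had log2 FC of 2.60 and 4.30.

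In the lists of other hormones a smaller share of the members passed the test. Of 12 tested ethylene synthesis genes 2 were higher and 1 lower, with a median of 0.15 that was -0.13 with libraries scaled by size alone. The lower one, *ACS11*, was no DEG when any one sample but the third non-treated one was left out (log2 FC -1.33 to -1.16). *ACS6*, a stress-induced ACC synthase, had 64.2, 71.5 and 97.8 CPM in UV-C treated against 15.99, 28.8 and 20.96 CPM in non-treated *jac1* (log2 FC 1.83, SE 0.35). Of 15 salicylic acid genes 6 were higher. *SARD1* had 40.9, 53.8 and 73.1 CPM against 1.91, 4.43 and 5.63 CPM, and *CBP60G* had 62.3, 66.7 and 82.9 CPM against 14.04, 27.1 and 31.3 CPM. Both encode activators of salicylic acid synthesis. *SARD1* shares 640 bases with a gene on the opposite strand.

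Of 24 tested genes of abscisic acid synthesis and response 11 were higher and 1 lower, with a median of 1.04. *LTI78* (*RD29A*), a marker of cold and drought, had 189.1, 157.4 and 148.3 CPM in UV-C treated against 9.47, 9.36 and 11.4 CPM in non-treated *jac1* (log2 FC 4.03, SE 0.27). *KIN1* had 28.3, 27.5 and 19.8 CPM against 1.66, 1.54 and 1.29 CPM (4.06, SE 0.22), and the dehydrin gene *COR47* had 548.9, 535.8 and 525.1 CPM against 129.3, 145.5 and 127.6 CPM (2.0001, SE 0.12). Of 25 tested AUX/IAA repressors of auxin signalling 6 were higher, with a median of 0.08 that was -0.21 with libraries scaled by size alone. *IAA29* had 14.6, 13.1 and 9.65 CPM against 2.299, 2.56 and 1.895 CPM, and *IAA19* had 10.9, 9.58 and 8.56 CPM against 1.86, 2.64 and 1.75 CPM.

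Heat shock factors and the chaperones they control are given side by side, and the difference between the lists was not tested. Of 18 tested heat shock factors 6 were higher and none lower (3 and 2 with libraries scaled by size alone), led by the repressor *HSFB2A* with 30.6, 35.1 and 34.9 CPM in UV-C treated against 4.06, 5.23 and 5.05 CPM in non-treated *jac1* (log2 FC 2.81, SE 0.12). Of 15 tested heat shock proteins 1 was a DEG, the small *HSP18.2* with a log2 FC of 1.01. Its call was lost under 9 of 16 alternatives, among them DESeq2 (0.99), library size alone (0.73) and leaving out the first treated (0.875) or the first (0.913) or second (0.956) non-treated sample. *HSC70-1*, the cytosolic chaperone of the list with the highest level, had 2526, 2471 and 2621 CPM against 2688, 2745 and 2694 CPM (log2 FC -0.09, SE 0.055). Of 16 tested catalase, ascorbate peroxidase and superoxide dismutase genes, which remove reactive oxygen species, 2 were higher and none lower (1 and 2 with libraries scaled by size alone). *AT1G20620*, encoding catalase 3, had 3211, 3557 and 2845 CPM against 1179, 1177 and 1043 CPM (1.4999, SE 0.087). Of 6 tested RBOH oxidases, which make superoxide, *RBOHD* alone was a DEG, with 105.05, 138.3 and 153.1 CPM against 44.1, 48.6 and 59.02 CPM (1.39, SE 0.14). Of 23 tested tau class glutathione transferases 5 were higher and 1 lower, from 3.01 for *GSTU11* to -1.06 for *GSTU27*. Of 10 tested genes of mitochondrial stress 1 was higher, *BCS1* (AT3G50930), with 79.9, 89.6 and 109.4 CPM against 3.01, 5.51 and 5.801 CPM (4.29, SE 0.24).

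Lists of UV damage repair and checkpoint genes held 1 and 0 DEGs, too few to set apart from the 13.4% of all genes tested. Of 18 genes of photoproduct repair 1 was higher and none lower, with a median of -0.13. The 6-4 photolyase gene *UVR3* had 27.3, 23.8 and 21.5 CPM in UV-C treated against 23.2, 25.2 and 22.6 CPM in non-treated *jac1* (log2 FC 0.03, SE 0.091, adjusted p = 0.782). *AT1G12370*, encoding the photolyase of cyclobutane dimers, had 10.3, 10.6 and 11.003 CPM against 8.73, 9.99 and 11.1 CPM (0.10, SE 0.12, adjusted p = 0.523). The groups of both overlapped, and both log2 FC were below 0 with libraries scaled by size alone. The damage sensor *DDB2* had 6.94, 7.95 and 9.03 CPM against 14.3, 14.04 and 14.8 CPM (-0.85, SE 0.11), below the threshold on size unless libraries were scaled by size alone. The single DEG, the centrin gene *AT4G37010*, reached a log2 FC of 1.67 (adjusted p = 0.00410) at 1.48 and 0.460 CPM on average. It was no DEG without the second or the third non-treated or the third treated sample (adjusted p 0.0129 to 0.0237). Of 20 tested genes of the DNA damage checkpoint 0 were DEGs by edgeR's quasi-likelihood test or by DESeq2, and 10 had an unadjusted p under 0.05, 9 of them lower. *ATM*, the kinase that senses DNA breaks, had 37.9, 47.4 and 43.1 CPM against 60.6, 68.8 and 60.02 CPM (-0.56, SE 0.081).

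Genes for UV-screening pigments fell or did not pass the test, but for 1. Of 12 tested genes of flavonoid synthesis and its MYB regulators 4 were lower and 1 higher. *TT4*, the chalcone synthase that opens the pathway, had 14.02, 31.8 and 30.3 CPM in UV-C treated against 93.5, 103.7 and 119.4 CPM in non-treated *jac1* (log2 FC -2.07, SE 0.23). *FLS1*, the flavonol synthase, had 1.55, 1.63 and 2.23 CPM against 10.2, 10.3 and 12.4 CPM (-2.60, SE 0.16), and *MYB111*, a regulator of flavonols, had 0.3397, 0.232 and 0.311 CPM against 3.96, 4.13 and 4.48 CPM (-3.80, SE 0.23). *AT1G56650*, encoding the anthocyanin regulator PAP1, was the higher one, with 1.75, 3.31 and 3.94 CPM against 0.709, 0.853 and 1.01 CPM. Of 9 tested genes of PAL, C4H and 4CL, *4CL3* alone was a DEG, with 3.83, 3.19 and 3.94 CPM against 14.97, 17.2 and 18.9 CPM (-2.21, SE 0.16). Of 18 genes of UV-B and blue light signalling 0 were DEGs in *jac1* by edgeR's quasi-likelihood test or by DESeq2, 13 had an unadjusted p under 0.05, and 5 were lower DEGs with libraries scaled by size alone. In the wild type 3 of the 18 were higher DEGs, and 3 had a called interaction of genotype and treatment below 0. The UV-B receptor gene *UVR8* had 103.2, 103.9 and 95.96 CPM against 95.7, 92.4 and 84.5 CPM, a log2 FC of 0.15 (SE 0.057) that was -0.13 with libraries scaled by size alone. Of 25 tested B-box factors 5 were higher and 5 lower. *BBX29* had 11.6, 12.8 and 14.6 CPM against 1.76, 1.62 and 2.15 CPM, whereas *BBX15* had 62.8, 63.98 and 61.9 CPM against 208.1, 217.96 and 234.9 CPM (-1.81, SE 0.062).

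Photosynthesis genes split by function. Of 20 tested light-harvesting complex genes 13 were higher and 1 lower, with a median of 1.18. The higher ones numbered 8 with libraries scaled by size alone. Their summed level was 172200 to 193400 CPM in UV-C treated and 68210 to 73960 CPM in non-treated *jac1*. *LHCA4*, of the photosystem I antenna, had 15728, 14151 and 15243 CPM against 3987, 4194 and 4587 CPM (log2 FC 1.82, SE 0.13). *LHCB4.3* was the lower one, with 9.17, 8.82 and 10.6 CPM against 22.04, 18.4 and 23.5 CPM. Of 20 genes of the Rubisco small subunit and Calvin cycle none was higher and 2 were lower, with a median of -0.02. *RBCS1A*, the main small subunit gene, had 19289, 16833 and 18369 CPM against 18862, 18978 and 18834 CPM (-0.06, SE 0.068, adjusted p = 0.487). Of 23 chlorophyll synthesis genes 2 were higher and none lower (2 and 1 with libraries scaled by size alone). *AT5G26030*, encoding ferrochelatase 1, which makes haem in place of chlorophyll, had 135.7, 136.1 and 151.7 CPM against 28.8, 33.97 and 40.1 CPM (2.04, SE 0.12). *PORA*, a light-dependent protochlorophyllide reductase, had 35.2, 33.4 and 28.8 CPM against 14.01, 10.98 and 10.5 CPM (1.46, SE 0.13).

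Clock genes moved in both directions. Of 14 morning genes 4 were higher and 2 lower, and of 12 evening genes 2 were higher and 4 lower. *LHY*, a repressor at the core of the clock that peaks at dawn, had 442.4, 479.3 and 456.2 CPM in UV-C treated against 921.5, 1051 and 1031 CPM in non-treated *jac1* (log2 FC -1.12, SE 0.12). *PRR7*, a repressor of *LHY* and *CCA1* that peaks later in the morning, had 82.97, 84.5 and 69.9 CPM against 9.78, 9.53 and 9.02 CPM (3.06, SE 0.31). *GI* had 3.45, 4.06 and 4.31 CPM against 0.245, 0.1101 and 0.172 CPM (4.43, SE 0.53), and *ELF3*, of the evening complex, had 21.3, 19.9 and 16.2 CPM against 58.8, 60.4 and 49.4 CPM (-1.55, SE 0.10). *TOC1*, an evening repressor, had 15.7, 15.9 and 15.9 CPM against 24.6, 26.6 and 21.6 CPM, a log2 FC of -0.62 that fell short of the threshold on size. Clock transcripts turn over with the hour, and the part of the time between harvests in these values was not tested.

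Cell wall genes changed in both directions, whereas the aquaporins that passed the test were all higher. Of 21 tested XTH enzymes 5 were higher and 4 lower (5 and 6 with libraries scaled by size alone). *TCH4* (*XTH22*), which responds to touch, had 571.02, 540.2 and 560.3 CPM in UV-C treated against 61.5, 68.4 and 25.8 CPM in non-treated *jac1* (log2 FC 3.42, SE 0.40), whereas *XTH6* had 114.1, 113.6 and 82.1 CPM against 330.4, 378.9 and 277.00 CPM (-1.67, SE 0.19). Of 13 tested alpha-expansins, which loosen walls, 2 were higher and 2 lower (1 and 3 with libraries scaled by size alone). *EXPA16* had 50.03, 73.7 and 68.4 CPM against 17.05, 13.3 and 18.2 CPM (1.98, SE 0.21) and *EXPA5* had 13.4, 9.58 and 11.6 CPM against 42.9, 46.3 and 51.4 CPM (-2.02, SE 0.14). Of 13 PIP aquaporins 4 were higher (2 with libraries scaled by size alone). *RD28* (*PIP2;3*) had 120.6, 217.9 and 141.5 CPM against 26.9, 30.9 and 29.8 CPM, and its neighbour *PIP2B* (*PIP2;2*) had 256.9, 359.2 and 303.4 CPM against 86.7, 86.1 and 81.97 CPM. The pair is nearly identical in coding sequence, so the division of reads between them is uncertain.

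Genes known to rise in darkness or under low energy were raised in 9 of 16 cases and lowered in none, with a median of 1.31. *ASN1*, an asparagine synthetase, had 1621, 1660 and 1471 CPM in UV-C treated against 135.1, 191.6 and 145.2 CPM in non-treated *jac1* (log2 FC 3.33, SE 0.13). *AT4G35770*, encoding the senescence-associated SEN1, had 1094, 961.8 and 802.8 CPM against 75.6, 75.4 and 59.4 CPM (3.76, SE 0.13). *BCAT-2*, an aminotransferase of branched-chain amino acids, had 55.2, 46.97 and 37.1 CPM against 4.57, 3.85 and 3.25 CPM (3.57, SE 0.17), and *TPS11*, of the trehalose phosphate synthase family, had 223.1, 253.4 and 234.2 CPM against 84.6, 101.04 and 80.6 CPM (1.42, SE 0.077). The groups did not overlap for any of the 4, as for 1711 of the 1723 higher DEGs and, upwards, for 34.2% of all genes tested.

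The share of higher DEGs fell steadily with the length of the gene. Among genes with a mean of at least 1 CPM, 26.8% of those spanning up to 1000 bases were higher DEGs and 7.12% lower. Of those spanning over 6000 bases 0.608% were higher and 2.31% lower. The median log2 FC was 0.28 in the shortest and -0.15 in the longest class, a difference of 0.43 that ranged from 0.35 to 0.49 when each *jac1* sample was left out in turn and whose SD between treated replicates was 0.13. Genes of 1 exon block held 18.7% higher and 11.8% lower DEGs, and those of more than 8 held 2.03% and 1.89%. The wild type showed a like order, with 23.8% higher DEGs in the shortest and 0.365% in the longest class.

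**Figure D3:**
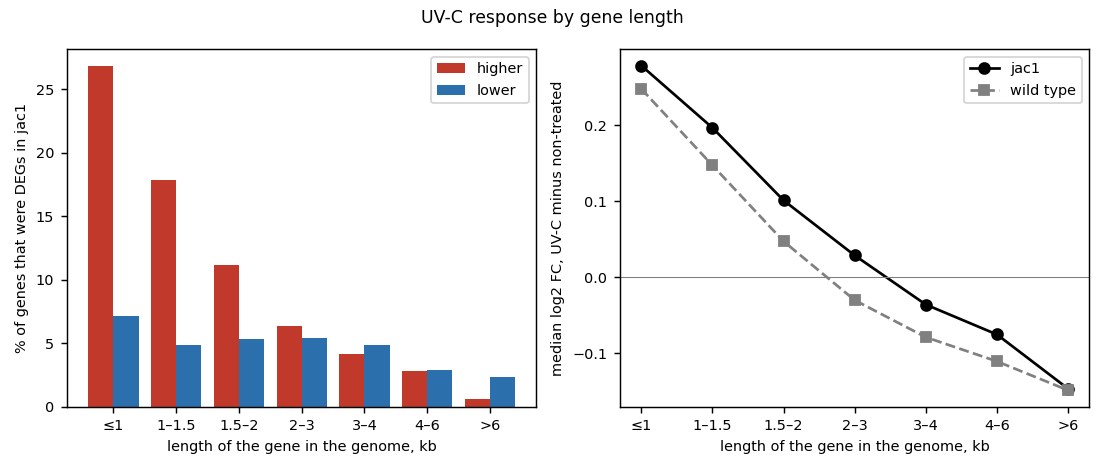
Left, percent of genes that were higher (red) and lower (blue) DEGs after UV-C in *jac1*, by length of the gene in the genome in kb. Right, median log2 FC (UV-C minus non-treated) per class in *jac1* (circles) and in the wild type (squares). The bars for higher DEGs drop from 26.8% to 0.608%, and both lines cross 0.

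The same test in the wild type, with 1784 DEGs (8.91% of genes; 1330 higher, 6.64%, and 454 lower, 2.27%), served to see which parts of the *jac1* response differed. DEGs of both genotypes numbered 1180, 44.1% of those of *jac1* and 66.1% of those of the wild type, and 1160 of them had the same direction. Over 14103 genes with at least 5 CPM on average the log2 FC of *jac1* and wild type had r = 0.79 across genes, which are not independent replicates. The steepest increases were alike: *DLAH* had a log2 FC of 7.59 in *jac1* and 7.59 in the wild type, and *ERF13* had 7.18 and 7.54. Most of the largest decreases were not, by the interaction of genotype and treatment (log2 FC in *jac1* minus wild type). It was called for *AT3G09450* (-6.06), *AT1G26790* (-5.16), *EXL5* (-3.12), *AT1G50040* (-3.115), *CRK30* (-2.17) and *RVE2* (-2.085). It was also called for *AT5G43270* (-1.99), *AT5G66052* (-1.33), *UGT84A2* (-1.28) and *AT1G31690* (-1.13). It was not called for *COL9* and *AT2G21210*. Of the 1494 DEGs of *jac1* that were no DEG in the wild type, 404 passed the test of the difference itself, the interaction of genotype and treatment, and 1267 had the same sign in both.

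The interaction was called for 784 genes, 3.92% of those tested (2.14% above and 1.78% below 0). Among genes with a mean of at least 5 CPM over the 12 samples, the 6 largest differences upwards were those of *AT3G62550*, *CCL*, *EXPA16*, *AT5G43440*, *MEE14* and *AT5G66400*, which were higher after UV-C in *jac1* and lower in the wild type. *CCL* (AT3G26740), whose transcript stability is set by the clock, had 352.5, 328.1 and 301.7 CPM in UV-C treated against 77.7, 64.8 and 60.9 CPM in non-treated *jac1*. In the wild type it had 52.2, 71.8 and 56.2 CPM after UV-C and 229.6, 224.3 and 197.6 CPM without, so the interaction was 4.13 on the log2 scale (SE 0.17, adjusted p = 8.68e-09). *AT5G66400*, encoding the dehydrin RAB18, had 15.6, 22.9 and 18.3 CPM against 5.11, 3.69 and 4.68 CPM in *jac1*, with an interaction of 3.57 (SE 0.32). *AT3G62550*, an adenine nucleotide alpha hydrolase-like gene, had 85.3, 83.95 and 74.7 CPM against 16.7, 12.1 and 11.6 CPM in *jac1*, with an interaction of 4.59 (SE 0.23).

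By the same criterion the 6 largest downwards were *AT3G09450*, *AT1G26790*, *AGP17*, *PHI-1*, *ELIP2* and *EXO*. *AT3G09450* had 2.09, 2.496 and 3.06 CPM in UV-C treated against 18.1, 24.8 and 28.3 CPM in non-treated *jac1*. The wild type had 5.41, 5.85 and 4.97 CPM after UV-C and 0.527, 0.789 and 0.975 CPM without, and the interaction was -6.06 (SE 0.31). *AGP17*, an arabinogalactan protein gene, had 10.09, 8.42 and 10.6 CPM against 83.8, 58.9 and 34.1 CPM in *jac1*, with an interaction of -3.57 (SE 0.45). *ELIP2*, an early light-induced protein gene, had 3.25, 1.800 and 2.803 CPM against 2.05, 1.82 and 1.44 CPM in *jac1*, where its groups overlapped, and a log2 FC of 3.72 in the wild type. *PHI-1*, of the EXORDIUM family, had a log2 FC of 1.34 in *jac1* that missed the threshold (adjusted p = 0.0126). It was called by likelihood ratio tests (1.39), with no filter (1.31), with the replicate block (1.47, adjusted p = 0.00476) and without the first non-treated *jac1* sample (1.845). *EXO* had a log2 FC of -0.07 in *jac1* and was no DEG. The non-treated *jac1* samples of both varied widely, between 14.1 and 53.2 CPM for *PHI-1* and between 17.002 and 125.35 CPM for *EXO*.

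**Figure D4:**
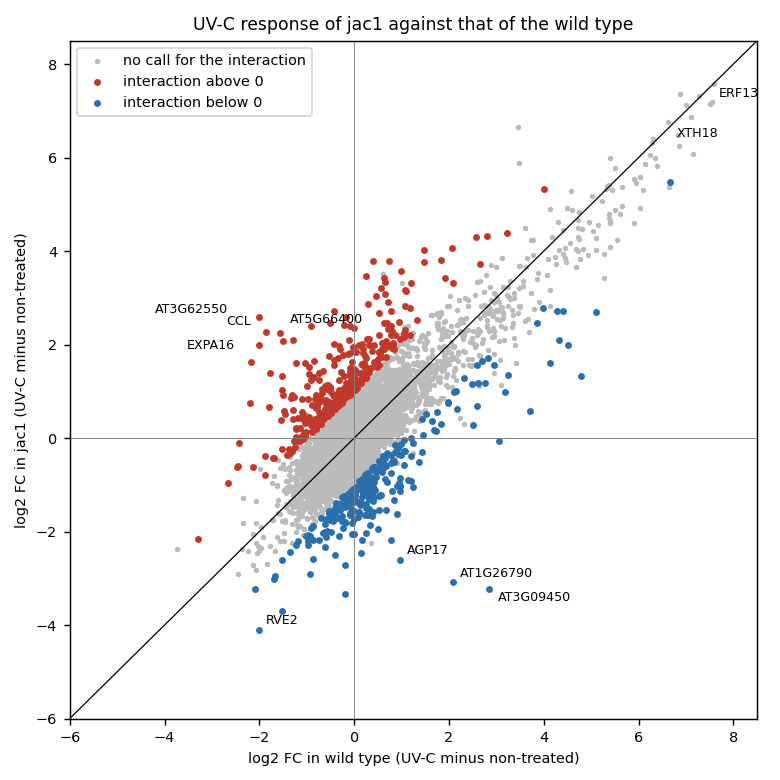
Log2 FC after UV-C in *jac1* (vertical) against that in the wild type (horizontal) for 14103 genes with at least 5 CPM on average over 12 samples; genes with a called interaction are red (above 0) or blue (below 0). Most genes lie along the line of equal response, and *AT3G09450* lies at -3.22 in *jac1* and 2.84 in the wild type.

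By lists, called interactions were most numerous in the following groups, which differ in size. The counts are to be read against 2.14% above and 1.78% below 0 among all genes tested. The 21 tested XTH enzymes had 1 above 0 and 6 below, and the 25 B-box factors 1 and 5. The 14 morning clock genes had 0 and 5, and the 20 light-harvesting genes 0 and 4. The 12 evening clock genes had 4 and 0, and the 28 WRKY factors 2 and 2. Of the 18 stress NAC genes 12 were higher in *jac1* and 7 higher and 1 lower in the wild type. Among them 5 had a called interaction above 0 and none below. Of 24 tested abscisic acid genes 11 were higher and 1 lower in *jac1* against 5 higher and 4 lower in the wild type, with 5 interactions above 0 and 1 below. *LTI78* had a log2 FC of 4.03 in *jac1* and 1.48 in the wild type (interaction 2.56, SE 0.36), and *COR47* had 2.0001 and 0.11 (interaction 1.89, SE 0.17). Of 16 low-energy genes 9 were higher in *jac1* against 3 in the wild type, with 5 interactions above 0. *AT4G35770* averaged 953 CPM after UV-C and 70.1 CPM without in *jac1*, against 130 and 47.1 CPM in the wild type (interaction 2.30, SE 0.17). The catalase gene *AT1G20620* averaged 3204 and 1133 CPM in *jac1* against 1490 and 1590 CPM in the wild type (interaction 1.59, SE 0.12). The 26 MAP kinase cascade genes and 12 JAZ repressors had 0 called interactions by edgeR's quasi-likelihood test, and 7 and 4 of them had an unadjusted p under 0.05. These lists are too small to set 0 apart from the 3.92% of all genes tested.

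Clock genes already differed between the genotypes without treatment, which enters every interaction of theirs. Other genes with a called interaction also had unlike levels without treatment, among them *CCL*, *AT3G09450* and *EXPA16*. *EXPA16* had 17.05, 13.3 and 18.2 CPM in non-treated *jac1* and 22.06, 26.96 and 39.6 CPM in non-treated wild type. The part of the non-treated levels in each interaction was not tested. Without treatment *LHY* averaged 1001 CPM in *jac1* and 337 CPM in the wild type, *PRR5* 0.938 and 13.9 CPM, and *TOC1* 24.3 and 88.8 CPM. After UV-C *PRR5* averaged 2.32 CPM in *jac1* and 0.968 CPM in the wild type (interaction 5.15, SE 0.29), and *TOC1* averaged 15.8 and 20.3 CPM (interaction 1.51, SE 0.12). *RVE2* fell in both, to 13.8 CPM against 237 CPM in *jac1* and to 87.5 CPM against 354 CPM in the wild type (interaction -2.08, SE 0.13). Genotype and hour of harvest cannot be told apart in these values. In the non-treated wild type, the third sample stood apart for *PRR7* (8.14 CPM, against 2.04 and 2.08) and *GI* (1.19 CPM, against 0.241 and 0.191).

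**Figure D5:**
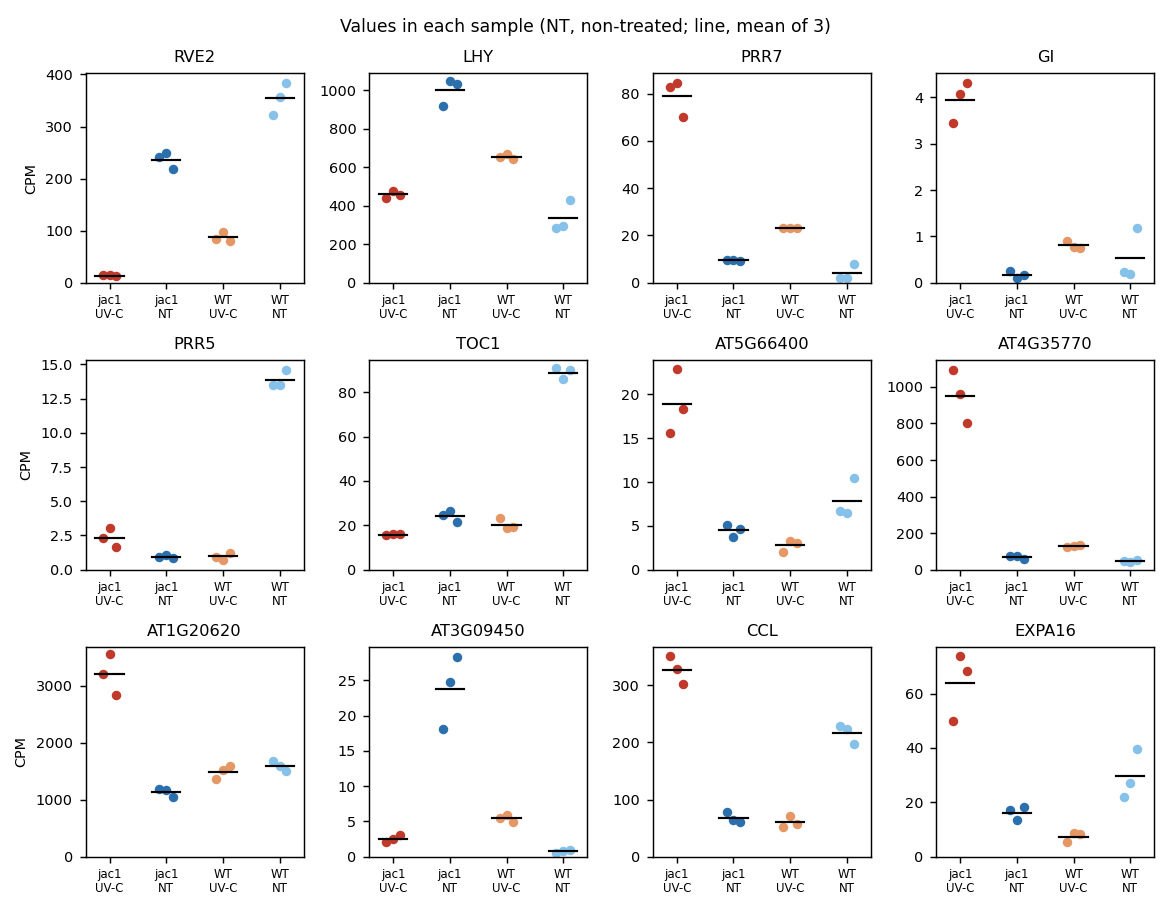
CPM of 12 genes in each of the 12 samples, with UV-C treated *jac1*, non-treated *jac1*, UV-C treated wild type and non-treated wild type from left to right and a line at each mean of 3. *TOC1* averaged 15.8 to 24.3 CPM in the first 3 groups and 88.8 CPM in wild type without UV-C, and *AT4G35770* averaged 953 CPM in UV-C treated *jac1* and at most 130 CPM in the others.

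Markers of leaf tissues were checked in the same samples. Mesophyll markers were high throughout, with a summed level of 94700 to 106700 CPM in UV-C treated and 60430 to 62910 CPM in non-treated *jac1*. Of these 5 markers 2 were higher and 1 lower, with a median log2 FC of 0.13, and *CAB1* alone made up much of the sum. Guard cell markers summed to 38.4 to 44.9 CPM against 76.1 to 87.0 CPM, with 2 of 7 lower DEGs (5 with libraries scaled by size alone) and none higher, among them *FMA* (*FAMA*), which sets guard cell identity, with 8.103, 11.2 and 9.55 CPM against 23.2, 26.8 and 27.3 CPM. Epidermis markers summed to 341 to 355 CPM against 588 to 691 CPM, with 2 of 3 lower. They were *ATML1*, with 42.7, 46.04 and 42.3 CPM against 100.3, 121.5 and 111.4 CPM, and *KCS10* (*FDH*). In such bulk samples fewer cells of a type and less RNA per cell cannot be told apart. Trichome markers summed to 3.89 to 4.51 CPM against 4.65 to 6.09 CPM, and flower markers to 1.45 to 2.52 CPM against 0.743 to 1.44 CPM, both near absence. Root markers summed to 348 to 490 CPM against 329 to 400 CPM, companion cell markers to 108 to 132 CPM against 101 to 112 CPM, and shoot meristem markers to 17.1 to 22.6 CPM against 7.32 to 14.9 CPM.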

How the data were processed

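Whole rosettes of *jac1* and wild-type plants were sequenced from poly-A RNA. The authors aligned the reads with STAR 2.5.2b to the genome with the Araport11 annotation and deposited raw counts per gene from featureCounts (Subread 1.6.2), without normalization. By the file header, strand was not used although the kit keeps it, one read file per library was counted, and reads with several alignments or overlapping several genes were left out, so overlapping genes and close paralogs have uncertain values. Precision is limited by the 21939540 to 39098227 counted reads per *jac1* sample.

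Here, gene types and symbols came from RefSeq by locus tag, which matched all 37517 nuclear identifiers. Nuclear protein-coding genes that reached 5 reads in 3 or more libraries were scaled by TMM and fitted with one mean per group over all 12 samples in edgeR 4.0.16 (R 4.3.3, limma 3.58.1), with quasi-likelihood tests, two-sided, and Benjamini-Hochberg adjustment over all genes. The study used likelihood ratio tests. The SE is the size of the log2 FC divided by the square root of F. A group with at most 3 reads in each sample was held to be at the floor. P-values set the difference between group means against the spread of pooled samples within groups. That spread was estimated over all 12 samples, with information shared between genes. On simulated data for UV-C against non-treated *jac1* (19901 genes) the test recovered 90 of 100 genes changed by 1.5 on the log2 scale. It recovered 99 of 100 changed by 3. False calls among the 19701 unchanged genes were not measured, since only calls in a true direction were counted and these genes had none. The simulated data held far fewer changed genes than the 2674 DEGs of *jac1*. The error of the calls with that many DEGs, or with the unlike make-up of treated and non-treated libraries, was not tested.

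Members and lists were chosen with earlier results of these data known. The genes named are *JAC1* and *GL1*, the 12 largest changes per direction, the 3 largest CPM gains and losses, examples from each list, and the 6 largest interactions per direction. The genes of the printed motif windows and a few members outside the DEGs (photolyases, *DDB2*, *UVR8*, *CCA1*, *TOC1*) were chosen after their values were seen. Alternatives were likelihood ratio tests, DESeq2 1.42.0, its size factors, library size only, glmTreat, other filters and gene sets, a false discovery rate of 0.05, a replicate block, only the compared samples, and each sample left out. One, leaving out nuclear genes alike an organelle genome, was chosen after seeing the data.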

Additional observations from a re-analysis of the deposited data

Results flagged for a closer look

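The response to UV-C differed between *jac1* and the wild type, by the test of the interaction, for 46 of the 152 genes followed by name. Further list members with a called interaction are not printed here. Values are the log2 FC in *jac1* minus that in the wild type. Above 0 were *PRR5* (5.15), *AT3G62550* (4.59), *CCL* (4.13), *EXPA16* (3.99), *AT5G43440* (3.82), *GI* (3.81), *MEE14* (3.81), *AT5G66400* (3.57), *BCAT-2* (2.58), *LTI78* (2.56), *AT4G35770* (2.30), *NAC019* (2.22), *KIN1* (2.001), *COR47* (1.89), *RD26* (1.81), *IAA29* (1.77), *AT1G20620* (1.59), *TOC1* (1.51), *TPS11* (1.495) and *AT1G15010* (1.33).

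Below 0 were *AT3G09450* (-6.06), *AT1G26790* (-5.16), *AGP17* (-3.57), *PHI-1* (-3.44), *ELIP2* (-3.14), *EXO* (-3.13), *EXL5* (-3.12), *AT1G50040* (-3.12), *ORA59* (-2.51), *CRK30* (-2.17), *ACS11* (-2.09), *LHY* (-2.09), *RVE2* (-2.08), *XTH6* (-2.05), *AT5G43270* (-1.99), *CCA1* (-1.62), *AT2G10940* (-1.45), *CAB2* (-1.40), *AT5G66052* (-1.33), *UGT84A2* (-1.28), *GSTU27* (-1.18), *CYP707A1* (-1.18), *HSP18.2* (-1.15), *AT1G31690* (-1.13), *FLS1* (-1.08) and *4CL3* (-1.03). Of the 46, 32 stayed called under all 21 alternatives. The calls of *EXO*, *IAA29*, *CYP707A1*, *HSP18.2*, *AT5G66052*, *AT1G31690*, *ACS11*, *4CL3*, *ORA59*, *AT1G15010*, *CCA1*, *FLS1*, *AT1G50040* and *GI* were lost under at least 1, for *GI* without the second non-treated *jac1* sample and for *AT1G50040* without the second UV-C treated wild-type sample.

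Outside the nuclear genes, reads of chloroplast-encoded genes made up at least 1.64% of the counts in every UV-C treated *jac1* sample, against at most 0.0219% in non-treated *jac1*. Mitochondrion-encoded genes made up at least 0.414% against at most 0.00619%, and the 18S ribosomal RNA gene at least 1.83% against at most 0.00938%. No test was run on these shares.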

How the results depend on the processing

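The number of DEGs in *jac1*, 2674, was 2504 to 2610 when each sample was left out in turn, 2884 by likelihood ratio tests, 2668 by DESeq2 and 2657 without the 23 nuclear genes alike an organelle genome. It moved most with glmTreat against an absolute log2 FC of 1, to 1062 (805 higher, 257 lower), and with libraries scaled by size alone the lower DEGs numbered 1889. In the wild type glmTreat gave 695 (590 higher, 105 lower), and each sample left out gave 1551 to 1818. For the interaction glmTreat gave 128 (91 above 0, 37 below), library size alone gave 537 below 0, and each sample left out gave 669 to 779.

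Of 152 genes followed by name, 135 were DEGs and 116 of these stayed so under the 16 alternatives run for single genes. These did not include glmTreat, under which calls of single genes were not followed. Small log2 FC changed sign. With libraries scaled by size alone they were -0.085 for *JAC1*, -0.25 for *UVR3*, -0.18 for *AT1G12370* and -0.13 for *UVR8*. *UVR3* was at -0.012 with only the compared samples and at -0.066 to 0.11 without single samples, and *AT1G12370* at -0.010 to 0.17. *EXO*, -0.07 in the main result, was at 0.27 by likelihood ratio tests, 0.19 with the replicate block, and -0.54 to 0.84 without single samples. The causes were not tested.

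Samples with the same replicate number in *jac1* had correlated deviations of 0.124, 0.0918 and 0.163. Those with different numbers had -0.130 to -0.0125, so each sample correlated best with its own number. They were not treated as pairs in the main result, by the rule that each exceed 0.1. Whether they were paired is not settled. The replicate numbers of the sample titles, used for the block, do not always match those in the library names. With the replicate block 2668 genes were DEGs in *jac1*, 1788 in the wild type and 795 for the interaction. Counts of 3 reads or fewer limit folds for the genes silent in one group.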

Other observations

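Nuclear genes that do not encode proteins were not among the members described above. Of 1120 that passed the same filter, 142 were higher and 134 lower in UV-C treated than in non-treated *jac1*, 24.6% in all, against 13.4% of protein-coding genes. Many overlap coding genes, and counting did not use strand. Among 23 tested coding genes with a stretch of at least 100 bases that was at least 95% identical to an organelle genome, 16 were higher and 1 was lower. The part of reads from organelles in these values was not tested.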
